A study of Mus musculus with 6 samples.

Results

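The genes described here encode enzymes, transporters and regulators of glycolysis and the citric acid cycle in mouse tissue at postnatal day 18. They are 43 genes of the 24411 gene symbols listed in the count tables, chosen by name for their place in the pathway, at a time when earlier results of these data were known. The samples were 3 wild-type libraries (WT) and 3 libraries from mice in which a large Atoh7 enhancer was knocked out (enhancer KO). Atoh7 is a transcription factor gene of the basic helix-loop-helix class, best known from the birth of retinal ganglion cells. Age, total RNA as the starting material and the library kit were the same in both groups. The sources disagree on the tissue: cerebellum in the protocol and the design text, retina in the fields for source and tissue. Strain, sex, litter and the extent of the deletion were given by no source used here, and no animal is named. The libraries are described as independent replicates, so p-values below measure the spread between these samples.

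Glycolysis splits glucose into pyruvate in the cytosol, and pyruvate is then either reduced to lactate or carried into mitochondria. There the pyruvate dehydrogenase complex turns it into acetyl-CoA, which the citric acid cycle oxidises to feed the respiratory chain. In brain, several steps are catalysed by isoenzymes that differ between neurons and glia, and lactate can pass between cells through monocarboxylate transporters.

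Reads in genes, the depth behind the levels below, ranged from 22812075 to 33076111 in WT and from 36849747 to 40858310 in enhancer KO. Atoh7 itself was at 2.04 ± 0.0945 CPM (counts scaled to a library of 1e+06 gene reads) in WT and 0.766 ± 0.0835 CPM in the enhancer KO libraries (SD, n = 3), in the direction the labels give. Reads outside annotated exons made up 32.4% ± 1.56 of the reads in WT and 17.4% ± 0.735 in enhancer KO (SD, n = 3), with no overlap between the groups. Reads that aligned to several places, which are not counted, made up 7.10% to 8.21% in WT and 10.2% to 11.3% in enhancer KO. WT replicate 2 stood apart, with 12.9% of its gene reads on the ribosomal RNA gene Rn45s and 20.4% of its reads unmapped. WT replicate 1 alone had Xist reads at a high level (1054 CPM) and 0 reads of the Y-linked gene Ddx3y. Summed over 11 granule neuron markers, the level was 2932 to 3539 CPM in WT and 1802 to 2245 CPM in enhancer KO, and all 11 fell. The 10 Purkinje cell markers summed to 4849 to 5884 CPM and 6771 to 7265 CPM (7 rose), and the 10 astroglial markers to 6508 to 6601 CPM and 7592 to 8022 CPM (4 rose). The 10 endothelial markers summed to 241 to 275 CPM and 184 to 215 CPM (7 fell), and the 10 microglial markers to 314 to 324 CPM and 340 to 409 CPM (5 rose). The 10 oligodendrocyte markers summed to 30441 to 33850 CPM and 33391 to 36705 CPM, where Mbp rose and Mag fell. The 12 photoreceptor markers together reached 8.36 to 9.20 CPM and 10.2 to 14.7 CPM, with Rom1 called higher, Rcvrn called lower and Gngt1 at 0 in all libraries. Of 5 red blood cell markers, the 4 globin genes were listed at 0 and Alas2 ranged from 11.5 to 36.9 CPM. The part of these differences in the results below was not tested, and in bulk tissue fewer cells of a type and less RNA per cell cannot be told apart.

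**Figure D1:**
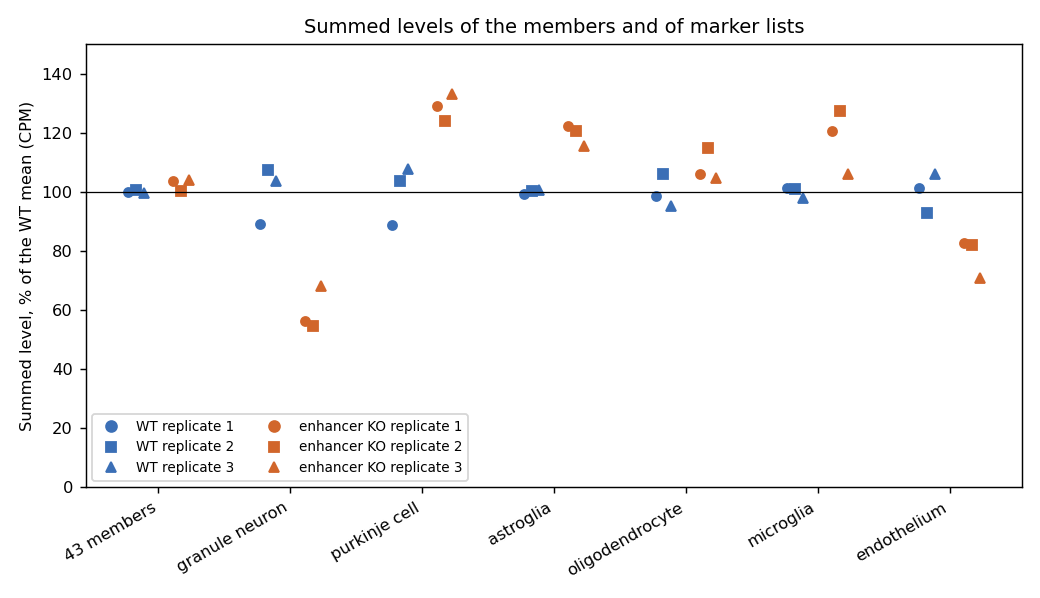
Summed level of the 43 members and of 6 lists of cell type markers in each library, as a percentage of the WT mean of each sum in CPM (y axis), where points are libraries and the line marks 100%. The members' sum lies near 100% in every library, the granule neuron and endothelial sums lie lower in enhancer KO and the Purkinje and astroglial sums lie higher.

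Promoter sequence was read for the members from RefSeq (build GRCm38.p6, the same assembly as mm10), and 40 of the 43 matched an entry, not Idh3a, Slc2a3 or Slc16a7. The 4 sequences shown belong to 2 members that rose (Hk2 and Pgk1) and 2 that fell (Slc16a1 and Pdk2), and they carry the motif whose share differed most from that of other promoters. Each is the 250 bases before the annotated start, 5′ to 3′ on the strand of the gene. Capitals mark ACGTG on either strand, the core of the element bound by hypoxia-inducible factors, and the palindrome CACGTG, an E-box of the kind bound by MYC and USF factors, contains it on both strands. The positions are chr6:82774455-82774704 on the minus strand for Hk2, chrX:106186850-106187099 on the plus strand for Pgk1, chr3:104638414-104638663 on the plus strand for Slc16a1 and chr11:95041372-95041621 on the minus strand for Pdk2, which has a further promoter entry that holds neither motif.
Hk2: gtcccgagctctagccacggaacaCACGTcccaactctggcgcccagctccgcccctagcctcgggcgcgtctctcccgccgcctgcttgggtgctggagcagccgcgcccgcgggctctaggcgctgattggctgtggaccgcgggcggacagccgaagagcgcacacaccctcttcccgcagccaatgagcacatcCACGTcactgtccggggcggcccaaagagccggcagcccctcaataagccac
Pgk1: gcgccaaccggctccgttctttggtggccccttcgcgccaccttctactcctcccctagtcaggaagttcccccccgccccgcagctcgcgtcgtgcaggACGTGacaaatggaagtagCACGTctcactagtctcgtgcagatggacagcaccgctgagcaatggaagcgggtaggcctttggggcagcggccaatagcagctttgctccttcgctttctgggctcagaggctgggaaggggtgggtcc
Slc16a1: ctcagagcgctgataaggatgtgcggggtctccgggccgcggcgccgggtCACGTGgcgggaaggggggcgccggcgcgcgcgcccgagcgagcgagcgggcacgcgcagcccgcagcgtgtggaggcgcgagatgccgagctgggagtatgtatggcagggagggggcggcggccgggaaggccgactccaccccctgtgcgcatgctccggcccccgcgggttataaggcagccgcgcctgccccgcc
Pdk2: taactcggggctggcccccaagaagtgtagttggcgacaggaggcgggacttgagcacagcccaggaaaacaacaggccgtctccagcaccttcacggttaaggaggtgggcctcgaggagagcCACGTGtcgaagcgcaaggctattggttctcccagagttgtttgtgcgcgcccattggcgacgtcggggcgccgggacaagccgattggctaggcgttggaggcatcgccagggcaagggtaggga

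Hk2 had the core on its reverse strand 226 and 52 bases before the start, and Pgk1 had it once on each strand, 150 and 131 bases before the start. Slc16a1 and Pdk2 each had 1 E-box. The members have 59 promoter entries, of which 25 held ACGTG (42.4%), against 16.6% of all 32851 entries of the same length. CACGTG was in 8 of the 59 (13.6%), against 6.02% of all entries. Some entries of Ogdh and of Aldoa overlap and hold the same match, so entries are not separate promoters. Counted by gene, 17 of the 40 members with an entry held ACGTG and 6 held CACGTG. No share by gene over all genes was computed. Entries were not matched for base composition, and its part in these shares was not tested. Among members with an entry, ACGTG was found for 4 of 9 that rose and 2 of 3 that fell, and the E-box for 0 of 9 and 2 of 3. The other motifs searched on both strands were the GC box GGGCGG (29 of 59 entries, 49.2%, against 32.7% of all), CCAAT (24 of 59, 40.7%, against 33.8%), AAGGTCA, the half-site of estrogen-related receptors (1 of 59, 1.69%, against 4.08%), and the NRF1 palindrome (0 of 59, against 0.782%). A match here describes the letters of the sequence, and binding was not measured.

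Across the pathway, 10 members rose and 3 fell in enhancer KO, and the changes were small. Hk2 rose by 26.2%, Mpc2 by 19.4% and Idh3a by 15.2%, and Pfkp fell by 15.5%. Of the 42 members tested, 23.8% were called higher, against 13.4% of all 15846 genes tested, and 7.14% were called lower, against 17.9% of all genes (edgeR quasi-likelihood test, Benjamini-Hochberg adjusted p under 0.05). Calls in either direction came to 31.0% of the members tested, close to the 31.3% of all genes tested. The median log2 fold change of the members was 0.05 (range -0.24 to 0.34), against 0.00 for all genes tested, and 31 of the 42 had a positive value. WT and enhancer KO libraries did not overlap for 18 of the 42 (42.9%), 14 higher and 4 lower, where 44.8% of all genes tested did not overlap. Eno1 was not tested, because it had 0 to 4 reads per library. Summed over all 43 members, the level was 10217 ± 56.2 CPM in the WT libraries and 10487 ± 213 CPM in the enhancer KO libraries (SD, n = 3), 2.64% apart.

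**Figure D2:**
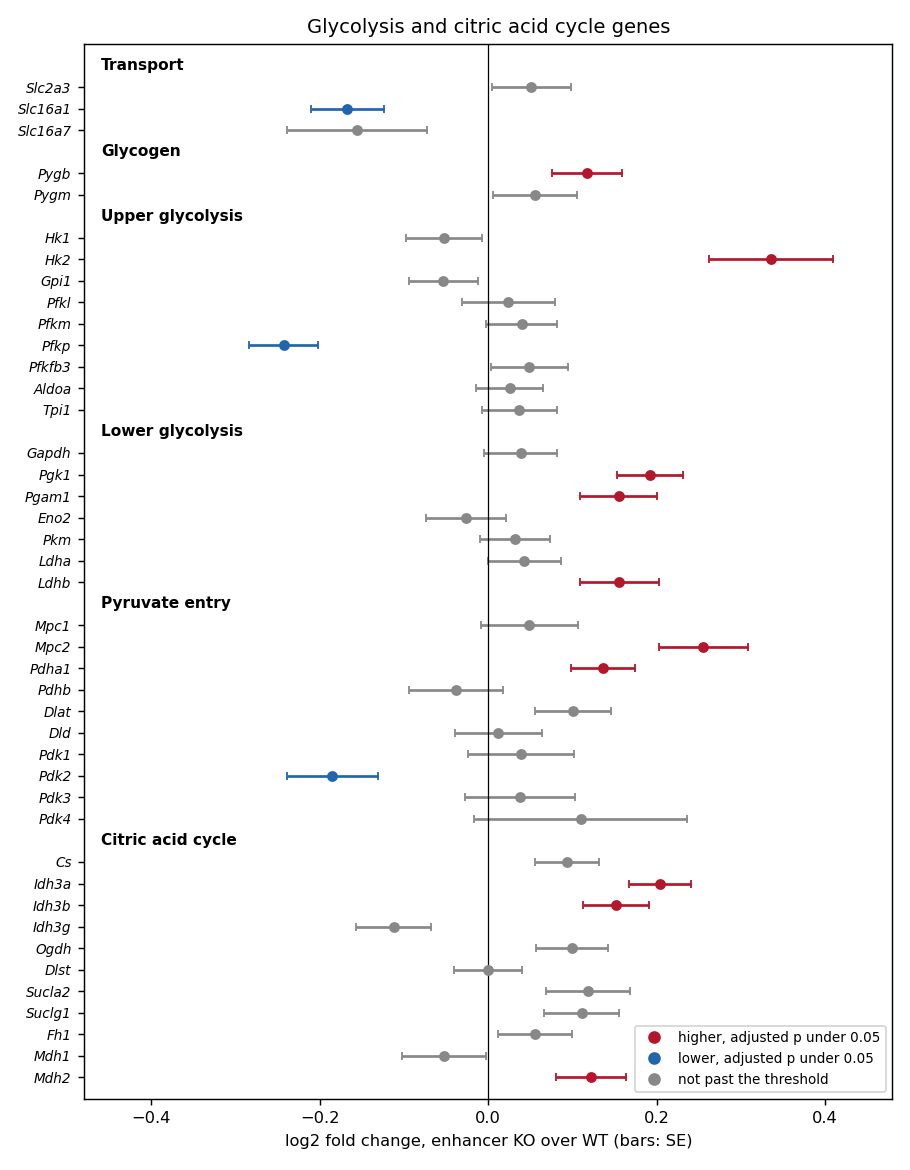
Log2 fold change of enhancer KO over WT (x axis) for the 42 members tested, grouped by role, with bars for the SE. The 10 members called higher (red) run from Pygb at 0.12 to Hk2 at 0.34 and the 3 called lower (blue) from -0.24 for Pfkp to -0.17 for Slc16a1.

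How many members were called depended on the scaling and the handling of gene structure. With library size alone, 8 were called higher and none lower, while over all genes the lower share of calls went from 57.3% (2120 higher, 2844 lower) to 43.8% (2165 higher, 1689 lower). With a trend over each gene's GC content, spliced length and intron length removed from each library, 11 members were called higher and 2 lower, and the lower share over all genes was 42.2% (2935 higher, 2144 lower). All 13 called members kept their direction in all 18 alternatives. In edgeR's test against a minimum fold of 1.2, 1 of those alternatives, 0 members were called. Without WT replicates 2 and 3, which leaves 1 WT library, Idh3b, Pdha1, Pdk2, Pgam1, Pygb and Slc16a1 lost their calls. The X-linked Pgk1 and Pdha1 kept theirs without WT replicate 1, the library with high Xist. The 21 members with 10000 to 30000 bases of intron had a median log2 fold change of 0.05, against 0.01 for the 4323 genes of that class, and the 9 with 30000 to 100000 bases had 0.05, against -0.02. The 6 members with 3000 to 10000 bases had 0.04, against 0.02, the 4 with fewer than 3000 bases had 0.04, as had the genes of that class, and the 2 with over 100000 bases had -0.10, against -0.02.

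Glucose and lactate transporters were represented by 3 members. Slc16a1, the monocarboxylate transporter MCT1 (chr3:104638668-104658462), was at 131, 124 and 135 CPM in WT and 116, 115 and 116 CPM in enhancer KO. The groups did not overlap, and Slc16a1 fell by 10.9% (log2 fold change -0.17 ± 0.043, SE; edgeR adjusted p = 0.0117). MCT1 is known in endothelium, astroglia and oligodendrocytes, and the endothelial markers fell in the same libraries while the astroglial sum was higher, and their part in the value of Slc16a1 was not tested. The call was lost with library size alone (edgeR adjusted p = 0.348), without WT replicate 3 (0.0565) and without enhancer KO replicate 1 (0.0528). Slc16a7, the high-affinity neuronal transporter MCT2, was at 15.1, 13.0 and 13.9 CPM in WT and 13.2, 11.8 and 12.8 CPM in enhancer KO. Its log2 fold change, -0.16 ± 0.083 (SE), was near that of Slc16a1 but its groups overlapped and it did not pass (edgeR adjusted p = 0.183). Slc2a3, the neuronal glucose transporter GLUT3, was at 116, 112 and 116 CPM in WT and 117, 113 and 126 CPM in enhancer KO, with overlapping groups (log2 fold change 0.05, edgeR adjusted p = 0.451).

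The 2 glycogen phosphorylases release glucose units from glycogen, which the brain holds mainly in astrocytes. Pygb, the brain form (chr2:150786735-150831758), was at 224, 226 and 223 CPM in WT and 255, 241 and 234 CPM in enhancer KO. The groups did not overlap and Pygb rose by 8.51%, just inside the threshold (log2 fold change 0.12 ± 0.042, SE; edgeR adjusted p = 0.0487). It was called in 7 of the 18 alternatives and is the least stable of the 13 calls. Pygm, the muscle form, was at 93.2, 92.2 and 88.6 CPM in WT and 101, 89.7 and 93.7 CPM in enhancer KO and overlapped between groups (log2 fold change 0.06, edgeR adjusted p = 0.438).

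Hexokinases trap glucose in the cell as glucose 6-phosphate, and Hk2, the inducible form (chr6:82725025-82774454), had the highest fold change of the members. Hk2 was at 13.5, 13.8 and 15.2 CPM in WT and 18.4, 17.3 and 18.1 CPM in enhancer KO, from 283 to 756 reads per library. No enhancer KO library was below 17.3 CPM and no WT library above 15.2 CPM, and Hk2 changed by 0.34 ± 0.074 (SE) on the log2 scale (edgeR adjusted p = 0.00467). The call held in 17 of the 18 alternatives, the exception being the minimum fold of 1.2. Hk1, the main hexokinase of brain, was at 264, 241 and 252 CPM in WT and 250, 235 and 245 CPM in enhancer KO. Its groups overlapped (log2 fold change -0.05 ± 0.045, SE; edgeR adjusted p = 0.416), and the sign turned to 0.01 with library size alone and to 0.05 once the trend over gene structure was removed. Hk1 lies on chromosome 10 of mm10, 719743 bases from Atoh7.

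Phosphofructokinase, the committing step of glycolysis, is built from 3 subunits that are each encoded by a gene of their own. Pfkp, the platelet form (chr13:6579768-6648777), was at 173, 166 and 166 CPM in WT and 145, 138 and 144 CPM in enhancer KO. The gap between the groups was wider than the spread inside either, and Pfkp fell by 15.5% (log2 fold change -0.24 ± 0.041, SE; edgeR adjusted p = 0.000921). The call was lost with library size alone (edgeR adjusted p = 0.0792) and against the minimum fold, and held in the other 16 alternatives. Pfkm, the muscle form and the most abundant of the 3 per transcript length, was at 361, 343 and 353 CPM in WT and 354, 365 and 367 CPM in enhancer KO. Pfkl, the liver form, was at 70.5, 65.9 and 69.3 CPM in WT and 75.3, 68.6 and 65.5 CPM in enhancer KO. Both overlapped between the groups, with log2 fold changes of 0.04 and 0.02. Per transcript length, Pfkp made up 22.4% ± 0.301 of the 3 forms in WT and 19.2% ± 0.538 in enhancer KO, and Pfkm 67.4% ± 0.172 and 70.3% ± 1.15 (SD, n = 3). The shares of the 3 forms add up to a fixed whole, so they are not separate results. Pfkm itself was not called (edgeR adjusted p = 0.515).

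The other members of upper glycolysis overlapped between the groups. They were Gpi1, glucose 6-phosphate isomerase (log2 fold change -0.05), Pfkfb3, which makes the phosphofructokinase activator fructose 2,6-bisphosphate (0.05), and Tpi1, triose phosphate isomerase (0.04). Aldoa, the aldolase of neurons and muscle, was at 1009, 1043 and 1027 CPM in WT and 1073, 1028 and 1032 CPM in enhancer KO (log2 fold change 0.03). In all, 1 of 9 members of upper glycolysis rose and 1 fell (11.1% each), near the 13.4% and 17.9% of all genes tested.

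In lower glycolysis, where ATP is made and pyruvate formed, 3 of 7 tested members rose (42.9%) and none fell, against 13.4% and 17.9% of all genes tested. Pgk1, phosphoglycerate kinase (chrX:106187100-106203699), was at 166, 158 and 161 CPM in WT and 187, 181 and 187 CPM in enhancer KO. All enhancer KO libraries were above all WT libraries, and Pgk1 rose by 14.2% (log2 fold change 0.19 ± 0.039, SE; edgeR adjusted p = 0.00299), a call held in 17 of 18 alternatives. Pgam1, phosphoglycerate mutase (chr19:41911923-41918660), was at 95.6, 86.4 and 90.8 CPM in WT and 102, 103 and 99.3 CPM in enhancer KO. It rose by 11.3% (log2 fold change 0.15 ± 0.046, SE; edgeR adjusted p = 0.0223) and lost the call without WT replicate 2 (0.0666), WT replicate 3 (0.0628) or enhancer KO replicate 2 (0.0738). Ldhb, the heart-type subunit of lactate dehydrogenase that prevails in neurons (chr6:142490249-142507957), was at 360, 382 and 389 CPM in WT and 416, 409 and 436 CPM in enhancer KO. Ldhb rose by 11.4% (log2 fold change 0.16 ± 0.047, SE; edgeR adjusted p = 0.0253), and lost the call with the trend removed (0.0762) and without WT replicate 1 (0.0658), enhancer KO replicate 1 (0.0561) or enhancer KO replicate 3 (0.0857). Ldha, the muscle-type subunit, was at 118, 112 and 123 CPM in WT and 122, 122 and 120 CPM in enhancer KO, with overlapping groups (log2 fold change 0.04, edgeR adjusted p = 0.494).

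The 3 members of lower glycolysis that rose share sequence with other genes, and reads that fit several places equally are lost to their counts. Of the 50-base windows of the longest coding transcript, 68.0% occurred in another gene for Pgk1, mostly in its retrocopy Pgk1-rs7, 41.5% for Pgam1 and 27.0% for Ldhb. Sharing was not particular to these 3, since it was 34.4% for Pkm and 16.6% for Ldha, which were not called, and 0.255% for Eno2. Among the other called members, the share was 17.1% for Pfkp (Pitrm1) and 16.9% for Pdha1, mostly Map3k15. Among called non-members it was 34.5% for Phkg2, 25.1% for Pfkfb2, 21.8% for Suclg2 and 10.3% for Gpd1. Whether the windows of these 2 sets lie at another place in the genome was not tested. The share of reads aligned to several places was higher in every enhancer KO library, as given above, and its part in these values was not tested. 2 of the most abundant members per transcript length belong to lower glycolysis. Gapdh, the glyceraldehyde phosphate dehydrogenase gene often used as a reference, was at 854 CPM per kilobase in WT and 877 in enhancer KO, and Pkm, pyruvate kinase, at 398 and 406. Neither passed, with log2 fold changes of 0.04 ± 0.044 and 0.03 ± 0.042 (SE; edgeR adjusted p = 0.549 and 0.607), and 82.5% of the windows of Gapdh occurred in other genes. Eno2, the neuronal enolase, was at 750, 701 and 687 CPM in WT and 695, 680 and 725 CPM in enhancer KO, with overlapping groups (log2 fold change -0.03 ± 0.047, SE). Eno1, the enolase of glia and most other cells, had 0 to 4 reads per library, too few for a comparison, and why was not tested. Of its windows 72.2% occurred in other genes and 70.5% in its near-identical copy Eno1b, which itself was at 0.29 CPM (WT) and 0.28 CPM (enhancer KO).

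**Figure D3:**
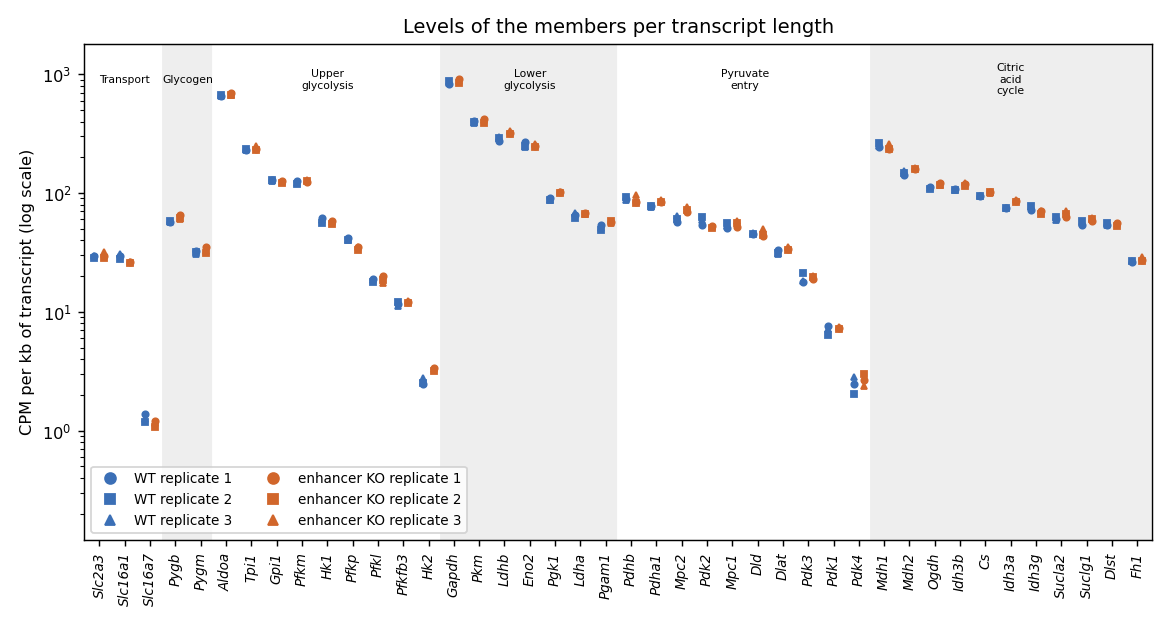
Level of each of the 42 tested members in CPM per kilobase of its longest coding transcript (log y axis), grouped by role and ordered by level, with 1 point per library. Gapdh and Aldoa are the most abundant and Slc16a7, near 1.2 CPM per kilobase, the least, and for most members the points of both groups lie close together beside this range.

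Per transcript length the 42 tested members, which leaves out Eno1, spanned almost 3 orders of magnitude. Gapdh was followed by Aldoa, at 662 CPM per kilobase in WT and 674 in enhancer KO, and Pkm. The lowest of the 42 were Slc16a7 at 1.27 and 1.15, Pdk4 at 2.45 and 2.67 and Hk2 at 2.57 and 3.25 CPM per kilobase. Hk2, with the highest fold change of the members, was thus among the 3 of these with the lowest level.

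Pyruvate reaches the mitochondrial matrix through a carrier made of 2 proteins, MPC1 and MPC2. Mpc2 (chr1:165460637-165481214) was at 59.0, 61.9 and 65.7 CPM in WT and 70.7, 74.4 and 77.6 CPM in enhancer KO. All enhancer KO libraries exceeded all WT libraries and Mpc2 rose by 19.4% (log2 fold change 0.26 ± 0.053, SE; edgeR adjusted p = 0.00331), a call held in 17 of 18 alternatives. Its partner Mpc1 was at 51.5 ± 2.61 CPM in the WT libraries and 53.1 ± 3.37 CPM in the enhancer KO libraries (SD, n = 3) and overlapped (log2 fold change 0.05 ± 0.058, SE), with 29.6% of its windows found in other genes. The difference between the fold changes of the carrier subunits was not tested.

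In the pyruvate dehydrogenase complex, Pdha1 encodes the catalytic alpha subunit of the first enzyme (chrX:160122209-160138413). Pdha1 was at 221, 223 and 218 CPM in WT and 241, 237 and 250 CPM in enhancer KO, and it rose by 9.94% (log2 fold change 0.14 ± 0.038, SE; edgeR adjusted p = 0.0170). Leaving out replicate 3 of either group ended the call (0.0642 for WT, 0.0629 for enhancer KO) and kept the direction. Pdhb, the beta subunit, was at 136 ± 3.12 CPM in the WT libraries and 132 ± 10.99 CPM in the enhancer KO libraries (SD, n = 3). Dlat, the transacetylase core, had a log2 fold change of 0.10 and Dld, the dehydrogenase shared with other complexes, of 0.01, and neither passed. Of the 4 structural members, 1 rose (Pdha1), where 13.4% of all genes tested were called higher.

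The complex is switched off by 4 kinases. Pdk2 (chr11:95026258-95041354), the most abundant of them per transcript length, was at 122, 142 and 134 CPM in WT and 120, 114 and 115 CPM in enhancer KO. The lowest WT library and the highest enhancer KO library were 2 CPM apart, and Pdk2 fell by 12.1% (log2 fold change -0.19 ± 0.054, SE; edgeR adjusted p = 0.0206). The call was lost with library size alone (edgeR adjusted p = 0.256), with the trend removed (0.0937) and without WT replicate 2 (0.107), WT replicate 3 (0.0713) or enhancer KO replicate 2 (0.0786). Without WT replicates 2 and 3 together the log2 fold change was -0.04 (edgeR adjusted p = 0.663, where the spread of the 1 remaining WT library is taken from the other group). Pdk1, Pdk3 and Pdk4 overlapped between groups, with log2 fold changes of 0.04, 0.04 and 0.11. Per transcript length Pdk2 made up 67.3% ± 1.19 of the 4 kinases in WT and 63.8% ± 1.08 in enhancer KO, and Pdk3 21.7% ± 1.05 and 24.0% ± 0.963 (SD, n = 3).

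The citric acid cycle held the most members whose groups did not overlap, 8 of 11, of which 7 were higher and 1 lower in enhancer KO. Of all genes tested, 20.5% did not overlap and were higher and 24.3% did not overlap and were lower. In the test, 3 of the 11 rose (27.3%) and none fell, against 13.4% and 17.9% of all genes tested. Isocitrate dehydrogenase 3, the NAD-dependent enzyme that limits the cycle, is built from alpha, beta and gamma subunits. Idh3a (chr9:54586334-54604661), the catalytic alpha subunit, was at 193, 191 and 192 CPM in WT and 223, 216 and 225 CPM in enhancer KO. The 3 WT libraries agreed to within 2 CPM, and Idh3a rose by 15.2% (log2 fold change 0.20 ± 0.037, SE; edgeR adjusted p = 0.00139). Idh3b (chr2:130279309-130284547) was at 173, 172 and 171 CPM in WT and 191, 185 and 197 CPM in enhancer KO, and rose by 11.1% (log2 fold change 0.15 ± 0.039, SE; edgeR adjusted p = 0.0114). The X-linked Idh3g was at 96.0, 104 and 101 CPM in WT and 94.1, 89.3 and 94.5 CPM in enhancer KO. Its groups did not overlap either but in the other direction, and the log2 fold change of -0.11, SE 0.045, missed the threshold (edgeR adjusted p = 0.0768). Idh3g passed in 1 of the 18 alternatives, without WT replicate 1, the library with high Xist (log2 fold change -0.14, edgeR adjusted p = 0.0305). Per transcript length, Idh3g made up 29.4% ± 0.913 of the 3 subunits in WT and 25.4% ± 0.208 in enhancer KO, Idh3a 29.1% ± 0.349 and 31.4% ± 0.187, and Idh3b 41.5% ± 0.587 and 43.2% ± 0.300 (SD, n = 3). None of these shares overlapped between the groups.

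Mdh2 (chr5:135778480-135790398), the mitochondrial malate dehydrogenase that closes the cycle, was at 206, 214 and 224 CPM in WT and 232, 231 and 238 CPM in enhancer KO. Mdh2 rose by 8.83% (log2 fold change 0.12 ± 0.042, SE; edgeR adjusted p = 0.0418), but was called in 9 of the 18 alternatives. It was lost with library size alone (edgeR adjusted p = 0.0670), a filter of 1 CPM in 3 libraries (0.0533), the trend removed (0.0651), and without any 1 of WT replicates 1 and 2 and the 3 enhancer KO libraries (0.0778 to 0.111). Mdh1, its cytosolic counterpart in the malate-aspartate shuttle, was at 535 ± 20.6 CPM in the WT libraries and 516 ± 25.9 CPM in the enhancer KO libraries (SD, n = 3) and overlapped (log2 fold change -0.05).

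Cs, citrate synthase, the entry enzyme of the cycle, was at 279, 278 and 276 CPM in WT and 299, 298 and 292 CPM in enhancer KO. Its groups were separate, but the log2 fold change of 0.09 ± 0.038 (SE) did not pass (edgeR adjusted p = 0.0835). Ogdh, the first enzyme of the oxoglutarate dehydrogenase complex, was at 463, 444 and 454 CPM in WT and 497, 482 and 479 CPM in enhancer KO (log2 fold change 0.10 ± 0.043, SE; edgeR adjusted p = 0.0989). Both passed with the unstranded column, without ribosomal RNA genes and with the trend removed (edgeR adjusted p from 0.0224 to 0.0468). Suclg1, the shared alpha subunit of succinyl-CoA synthetase (log2 fold change 0.11, edgeR adjusted p = 0.0795), and Fh1, fumarase (0.05, 0.379), were also separate between groups without passing. Sucla2, the ATP-forming beta subunit, overlapped at 0.12 (edgeR adjusted p = 0.0921), and Dlst, the transsuccinylase of the oxoglutarate complex, was at 151 ± 2.71 CPM in the WT libraries and 151 ± 4.59 CPM in the enhancer KO libraries (SD, n = 3).

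**Figure D4:**
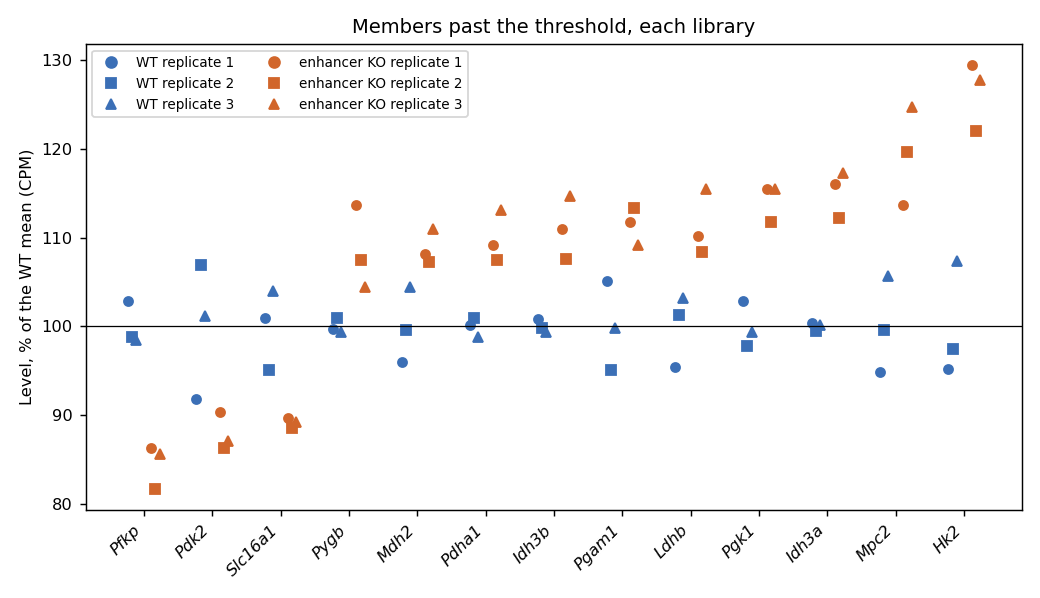
Level in each library of the 13 members past the threshold, as a percentage of the WT mean in CPM (y axis), ordered by fold change, where each point is a library. In all 13 the WT and enhancer KO points do not overlap, and Hk2 shows the widest gap.

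Comparing forms of the same enzyme within a library leaves out the scaling between libraries. For each of 8 pairs the log2 ratio of reads was compared between 3 WT and 3 enhancer KO libraries by an exact two-sided permutation test, whose smallest possible p is 0.1, so no pair could reach 0.05. The pairs were chosen to set a form more typical of neurons against one that is glial or more broadly expressed. The split is not clean, since Aldoc is also a form of Purkinje cells, and the ratios do not measure neurons against glia. For Hk1 over Hk2 the ratios were 4.29, 4.12 and 4.04 in WT and 3.77, 3.76 and 3.76 in enhancer KO. The enhancer KO libraries lay together below all WT libraries, a difference of -0.39 (exact permutation p = 0.1, adjusted over the 8 pairs 0.267). For Pfkp over Pfkl they were 1.30, 1.34 and 1.26 in WT and 0.95, 1.0045 and 1.14 in enhancer KO, a difference of -0.27 with the same p. For Aldoa over Aldoc, the aldolase of astroglia and Purkinje cells, they were -0.44, -0.52 and -0.56 in WT and -0.75, -0.83 and -0.76 in enhancer KO, a difference of -0.27, again with the same p. These 3 pairs were the ones whose groups did not overlap, and in each the form named first was lower in enhancer KO relative to its partner. Hk2, Pfkp and Aldoc were called by themselves in the same libraries (log2 fold changes 0.34, -0.24 and 0.30). Their partners Hk1, Pfkl and Aldoa were not, so these ratios are not separate results. No share over other gene pairs was computed, and 44.8% of all single genes tested did not overlap.

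In the other 5 pairs the groups overlapped. Ldhb over Ldha had means of 1.68 ± 0.0774 in WT and 1.79 ± 0.0601 in enhancer KO (SD, n = 3; difference 0.11, exact permutation p = 0.3). Pygb over Pygm differed by 0.06 (exact permutation p = 0.2), and Slc2a3 over Slc2a1 by 0.06, Pfkm over Pfkl by 0.02 and Slc16a7 over Slc16a1 by 0.01 (exact permutation p = 0.9 each). The signs of these last 3 turned when single libraries were left out. Eno2 over Eno1, the classical pair of neuronal and glial enolase, had no usable ratio, because Eno1 was at 0 to 4 reads per library. Of the 8 pairs, 3 had lower mean ratios in enhancer KO and 5 had higher ones, by 0.01 to 0.11.

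**Figure D5:**
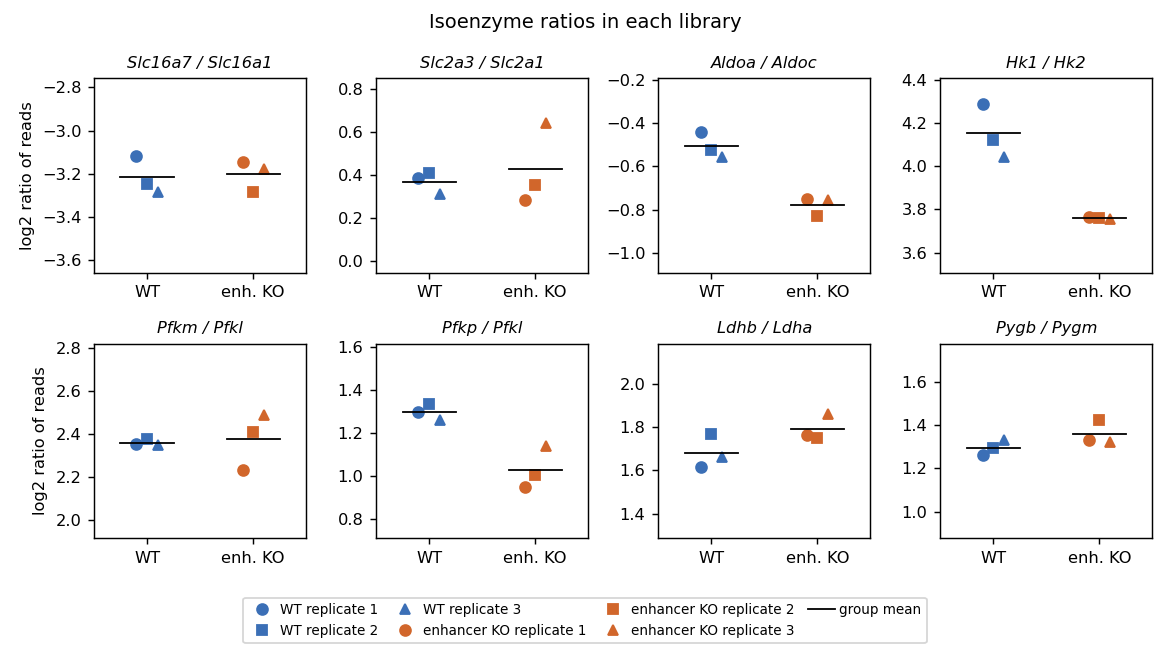
Log2 ratio of reads of the named pair (y axis, each panel spanning 0.9 log2 units) in the WT and enhancer KO libraries, with lines at the group means. Hk1 over Hk2, Pfkp over Pfkl and Aldoa over Aldoc are lower in all 3 enhancer KO libraries than in all 3 WT libraries, and the other 5 pairs overlap.

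Further genes of the same pathway were read from a list of 46 non-members, of which 43 were tested, 10 rose and 4 fell. Calls in either direction made up 32.6% of those tested, near the 31.3% of all genes tested. Succinate dehydrogenase, which joins the citric acid cycle to the respiratory chain, has 4 subunit genes and 3 of them rose. Sdhc went from 91.7 ± 4.37 to 113 ± 0.951 CPM (log2 fold change 0.31), Sdhb from 80.9 ± 2.01 to 97.6 ± 7.42 CPM (0.27) and Sdha from 305 ± 9.05 to 347 ± 9.76 CPM (0.19), with edgeR adjusted p of 0.000336, 0.00276 and 0.00629 (SD, n = 3). Sdhb missed the threshold without WT replicates 2 and 3 (edgeR adjusted p = 0.0558). Sdhd had a log2 fold change of 0.13 and did not pass (edgeR adjusted p = 0.0804). With Idh1, Suclg2 and Slc25a11, the oxoglutarate carrier, 6 of 13 further genes of the cycle rose (46.2%) and none fell, against 13.4% and 17.9% of all genes tested. Idh1 was called in 6 of the 18 alternatives and Slc25a11 in 9.

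Among further genes of glycolysis, Aldoc was at 1370, 1499 and 1509 CPM in WT and 1807, 1825 and 1741 CPM in enhancer KO. It rose by 22.7% (log2 fold change 0.30 ± 0.046, SE; edgeR adjusted p = 0.000524) in the libraries in which the Purkinje and astroglial marker sums were also higher, as given above. Bpgm, which makes 2,3-bisphosphoglycerate, rose by 15.4% (edgeR adjusted p = 0.00492). Gpd1, cytosolic glycerol 3-phosphate dehydrogenase, rose by 9.95% (edgeR adjusted p = 0.0360). Pfkfb2, a paralogue of Pfkfb3, fell from 65.8 ± 1.41 to 52.3 ± 0.564 CPM (SD, n = 3; log2 fold change -0.33, edgeR adjusted p = 0.000161). Eno3, the muscle enolase, fell at a low level, from 4.96 ± 0.355 to 3.47 ± 0.232 CPM (SD, n = 3; log2 fold change -0.52, edgeR adjusted p = 0.00940, and 0.0950 without WT replicates 2 and 3). Slc2a1, the glucose transporter GLUT1 of endothelium and glia, was at 88.6, 84.3 and 93.1 CPM in WT and 96.4, 88.3 and 80.6 CPM in enhancer KO, and the log2 fold change came to -0.01, SE 0.064 (edgeR adjusted p = 0.953).

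The lowest adjusted p among the non-members was that of Phka2, a regulatory alpha subunit of phosphorylase kinase, the enzyme that activates glycogen phosphorylase. Phka2 was at 30.3, 30.1 and 30.4 CPM in WT and 19.0, 19.4 and 18.8 CPM in enhancer KO. Its WT libraries differed by less than 1 CPM, and it fell by 37.1% (log2 fold change -0.67 ± 0.057, SE; edgeR adjusted p = 8.05e-06). Phkg2, a catalytic subunit, fell with a log2 fold change of -0.16 (edgeR adjusted p = 0.0238), while Phka1, Phkb and Phkg1 had 0.02, -0.04 and -0.02 and did not pass. Pdp2, a phosphatase that reverses the action of the PDH kinases, rose with a log2 fold change of 0.29 (edgeR adjusted p = 0.0141). Pdp1 had 0.15 and did not pass (edgeR adjusted p = 0.0768).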

How the data were processed

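Total RNA of 3 WT and 3 enhancer KO samples was sequenced. The authors deposited whole-number read counts per gene in 3 columns for strand choices, as STAR writes them, with no normalization. Reads were trimmed with Trimmomatic and aligned with STAR to mm10, per the submitters' processing notes. For versions, settings and annotation: not given in the sources used here. STAR counts reads that align to 1 place.

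Column 4 of the stranded counts was used, since 1.62% to 1.88% of stranded reads lay on the other strand. The 4 summary rows that name no gene entered neither library sizes nor tests. Outside-exon and multimapped shares are of all reads.

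With edgeR 4.0.16 (R 4.3.3), genes passing filterByExpr were scaled by TMM and compared by the robust quasi-likelihood test, two-sided, with Benjamini-Hochberg adjustment over 15846 genes and a threshold of 0.05. CPM are counts per 1e+06 TMM-scaled gene reads, and percent changes come from the fit. The SE was derived from the log2 fold change and the F statistic. Isoenzyme ratios used a prior of 0.5 counts. Checked on simulated counts, the test called 46.8% of the genes changed 1.25-fold, 85.1% at 1.5-fold and 92.4% at 2-fold.

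Positions and transcripts came from GENCODE mouse release M21 (GRCm38), with 23371 symbols matched and 669 matched by an older symbol. Promoters came from RefSeq. The closest pair of libraries still differed by more than sampling noise, so all 6 were kept. Per-library values are given for the members called and for both genes of each pair, the remaining members with their level or log2 fold change. Of the non-members, up to 8 with the smallest adjusted p were to be named, plus Slc2a1 and Aldoc; Sdhd, Idh1, Suclg2, Slc25a11, Gpd1, Phka1, Phkb, Phkg1, Phkg2, Pdp1 and Pdp2 were named after their values were seen. The members and lists were chosen with earlier results of these data known. Alternatives were library size alone, RLE scaling, other filters, a replicate block, the unstranded column, limma-voom 3.58.1, DESeq2 1.42.0, a minimum fold of 1.2, no ribosomal RNA genes, a trend over gene structure (mgcv 1.9-3) and fits without single libraries or without WT replicates 2 and 3.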

Additional observations from a re-analysis of the deposited data

How the results depend on the processing

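With 3 libraries a group, the SE of the members' log2 fold changes was 0.037 to 0.13, so small changes can be missed, and 19 of the 42 members had an unadjusted p under 0.05 against 13 called. The 13 called members kept their direction in all 234 combinations with an alternative and their call in 180 of them. Of the members not called, 15 combinations passed the threshold and 29 changed sign. With a minimum fold of 1.2, 0 members were called higher and 0 lower, 0 and 1 of the non-members (the latter Phka2), and 83 and 908 of all genes. With library size alone 0 members and 1689 of all genes were called lower. Without WT replicates 2 and 3, 1 member, 2 non-members and 1640 of all genes were called lower, and Idh3b, Pdha1, Pdk2, Pgam1, Pygb and Slc16a1 lost their calls. Leaving out each library in turn gave 7 to 8 members higher and 1 to 4 lower, the lowest without WT replicate 3. The cause of these changes was not tested. Same-numbered WT and enhancer KO libraries deviated from their group means with correlations of 0.0526, -0.0386 and -0.0795. With 3 libraries a group and no litter given, these values cannot decide whether the replicate numbers pair the libraries. With the replicate block, 9 members were called higher and 3 lower (Pygb was lost, edgeR adjusted p = 0.0615) and 1961 and 2635 of all genes.

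Sign changes concerned values near 0. With library size alone the log2 fold changes were 0.0094 for Hk1, 0.011 for Gpi1, 0.037 for Eno2, 0.026 for Pdhb, 0.064 for Dlst, 0.014 for Mdh1 and 0.055 for Slc2a1. With the trend over gene structure removed they were 0.052 for Hk1, 0.014 for Gpi1, 0.035 for Eno2, -0.0071 for Pdk3, 0.092 for Dlst and 0.0053 for Slc2a1. With RLE scaling, no filter, the unstranded column, DESeq2 and no ribosomal RNA genes, Dlst was at 0.0069, 0.0098, 0.019, 0.0073 and 0.018 and Slc2a1 at 0.0011, 0.0039, 0.012, 0.0011 and 0.012. The unstranded column gave -0.0011 for Mpc1. Without WT replicates 2 and 3, Pdk1 was at -0.031, Dlst at 0.042, Mdh1 at 0.020, Slc2a1 at 0.019 and the ratio of Slc16a7 over Slc16a1 differed by -0.085. Leaving out single libraries gave ranges of -0.021 to 0.069 for Pfkl, -0.052 to 0.012 for Eno2, -0.11 to 0.0041 for Pdhb, -0.049 to 0.060 for Dld, -0.011 to 0.089 for Pdk1, -0.0027 to 0.12 for Pdk3, -0.011 to 0.025 for Dlst and -0.060 to 0.058 for Slc2a1. The isoenzyme differences ranged from -0.019 to 0.064 for Slc16a7 over Slc16a1, -0.050 to 0.13 for Slc2a3 over Slc2a1 and -0.039 to 0.089 for Pfkm over Pfkl when single libraries were left out.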

Other observations

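Basigin (Bsg), the chaperone that carries monocarboxylate transporters to the cell surface, was named after its values were seen. Its level was 214, 446 and 237 CPM in WT and 427, 426 and 430 CPM in enhancer KO. WT replicate 2, the library with the high ribosomal RNA share, lay above the enhancer KO libraries and the other WT libraries lay far below them. The log2 fold change of 0.52 ± 0.333 (SE) missed the threshold (edgeR adjusted p = 0.324), and without WT replicate 2 it was called higher (edgeR adjusted p = 1.51e-06).

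Slc16a3, the transporter MCT4 that exports lactate from glycolytic cells and, like the genes that follow, named after its values were seen, was at 2.62 ± 0.234 CPM in the WT libraries and 2.02 ± 0.330 CPM in the enhancer KO libraries (SD, n = 3). Its groups did not overlap and the log2 fold change of -0.37 ± 0.184 (SE) missed the threshold (edgeR adjusted p = 0.154). The transaminases Got1 and Got2 of the malate-aspartate shuttle were at 0.07 and 0.09 (edgeR adjusted p = 0.163 and 0.125), each with separate groups.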
